A study of Mus musculus with 7 samples.

Results

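The genes described here encode the myosin, actin and troponin isoforms of heart muscle: Myh6, Myh7, Myh7b, Myl2, Myl3, Tnni3, Tnnt2, Tnnc1, Actc1 and Acta1. They were taken as every array probe set that the platform annotation assigns to 1 of these genes alone, which gave 15 of 45037 probe sets and 10 of 18193 named genes. RNA from whole hearts of 7 male mice at 7 months of age was hybridized to Affymetrix mouse genome arrays, 1 heart an array. In 4 hearts (mdx HRTΔIKKβ), Cre recombinase driven by the alpha myosin heavy chain (Myh6) promoter had deleted floxed IKKβ, the kinase that activates NF-κB. The other 3 hearts (mdx IKKβf/f) came from littermates with the floxed alleles and no Cre listed. All 7 mice, controls included, were mdx mice, which lack dystrophin and serve as a model of Duchenne muscular dystrophy, and no heart with intact dystrophin was on the arrays. The deletion concerns cardiomyocytes, whereas whole hearts also hold vessels, fibroblasts and immune cells. In such bulk RNA, fewer cells of a type and less RNA per cell cannot be told apart.

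The sarcomere contracts when myosin heads on thick filaments pull on actin thin filaments. Troponin, made of a calcium-binding subunit, an inhibitory subunit and a tropomyosin-binding subunit, sets the access of myosin to actin. Most of these proteins come in isoforms that are exchanged around birth in the rodent heart. Alpha myosin heavy chain (Myh6) replaces beta myosin heavy chain (Myh7), cardiac troponin I (Tnni3) replaces the slow skeletal form (Tnni1), and cardiac actin (Actc1) outweighs skeletal actin (Acta1). In rodents, pressure load and heart failure are known for raising Myh7 and Acta1 again, which is why the pairs are read as adult against fetal isoforms. The question put to the data was whether that balance differed between hearts with IKKβ deleted in cardiomyocytes and floxed controls.

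The 3 heavy chain genes each hold a microRNA in an intron, and the sequences are shown because they tie the genes into 1 family. Myh6 holds miR-208a, Myh7 holds miR-208b and Myh7b holds miR-499. The mature forms are given 5′ to 3′ from RefSeq (GRCm38.p6), with the seed, bases 2 to 8, in capitals. They lie at chr14:54949072-54949093 on the minus strand, chr14:54975710-54975731 on the minus strand and chr2:155622893-155622913 on the plus strand.
mmu-miR-208a-3p: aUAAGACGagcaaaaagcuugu
mmu-miR-208b-3p: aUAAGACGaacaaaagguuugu
mmu-miR-499-5p: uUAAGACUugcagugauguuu
The miR-208 sequences shared their seed and differed at 3 of 22 bases, while the miR-499-5p seed differed from theirs at 1 base. The array values below are those of the host genes, and the microRNAs themselves were not measured.

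The promoters of the adult and fetal heavy chain and actin genes are shown because the isoform pairs turn on them, and because a Myh6 promoter drove Cre in the mdx HRTΔIKKβ mice, though no source used here says which stretch of it. Each runs up to the base before the annotated start in RefSeq (GRCm38.p6), all on the minus strand, at chr14:54966608-54966857 for Myh6, chr14:54994550-54994799 for Myh7, chr2:114052876-114052975 for Actc1 and chr8:123894776-123894875 for Acta1. Capitals mark matches to a TATA box (TATANA, read on the sense strand alone), to the MCAT element bound by TEAD factors (CATTCC, both strands) and to the CArG box bound by serum response factor (both strands).
Myh6: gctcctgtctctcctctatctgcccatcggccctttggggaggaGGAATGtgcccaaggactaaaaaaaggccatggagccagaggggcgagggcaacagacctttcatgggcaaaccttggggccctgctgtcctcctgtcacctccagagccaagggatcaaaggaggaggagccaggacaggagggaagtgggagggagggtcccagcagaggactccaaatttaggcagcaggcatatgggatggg
Myh7: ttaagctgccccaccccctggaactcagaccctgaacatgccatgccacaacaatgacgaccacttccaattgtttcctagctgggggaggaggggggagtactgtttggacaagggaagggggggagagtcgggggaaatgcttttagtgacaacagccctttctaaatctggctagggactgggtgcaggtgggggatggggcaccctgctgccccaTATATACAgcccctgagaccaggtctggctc
Actc1: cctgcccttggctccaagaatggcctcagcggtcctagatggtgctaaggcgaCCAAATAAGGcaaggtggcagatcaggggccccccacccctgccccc
Acta1: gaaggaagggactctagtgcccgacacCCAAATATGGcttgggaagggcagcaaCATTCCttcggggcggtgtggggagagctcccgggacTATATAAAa
Both actin stretches held a CArG box, from 47 to 38 bases before the start in Actc1 and from 73 to 64 in Acta1. In Acta1 an MCAT element lay from 46 to 41 bases before the annotated start. The TATA matches of Acta1 lay from 9 to 2 bases before it, against 31 to 24 bases in Myh7. The RefSeq windows run from 250 bases before a start to 50 bases after it, and all 10 genes matched, with 13 windows in all since some have several starts. A CArG box was found in 3 of the 13 windows (Myl3, Actc1 and Acta1), against 1.63% of 32851 windows of the same length. A TATA box was found in 7 of them against 18% of all windows, an MCAT element in 6 against 14.7%, a GATA motif (searched by name on both strands) in 5 against 29.8%, an NF-κB site in 2 (Myh6 and Actc1) against 6.93% and a MEF2 site in 0 against 1.86%. A letter match describes the window and does not show that a factor binds there.

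Values are log2 RMA signals, and differences are mdx HRTΔIKKβ minus mdx IKKβf/f on that scale with the standard error of a limma fit over all probe sets. The arrays had medians from 6.73 to 6.751 and correlated at 0.9875 or more. The number of arrays limits the precision of every value. Ikbkb, which encodes IKKβ, was measured by 5 probe sets that differed by -0.18 to 0.02 (limma, adjusted p from 0.801 to 0.973). No source used here places them inside or outside the floxed exons, so these values do not check the labels. By qPCR on whole hearts, the study itself reported lower Ikbkb in mdx HRTΔIKKβ than in mdx IKKβf/f mice. The 11 measured cardiomyocyte genes outside the sarcomere included the mitochondrial creatine kinase gene Ckmt2 and the ryanodine receptor gene Ryr2. They averaged 13.33 to 13.39 in mdx HRTΔIKKβ hearts and 13.27 to 13.37 in mdx IKKβf/f hearts. Kcnj2 of the same list stood far lower, at 4.61 to 6.06 over the hearts. The averages describe the list and were not a test of the labelled tissue. By the mean of each list, skeletal muscle genes stood far higher in mdx IKKβf/f replicate 1 than in any other heart. By the same measure atrial genes stood lowest in mdx IKKβf/f replicate 2 and smooth muscle genes highest in mdx IKKβf/f replicate 3.

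No isoform passed the test between groups. Over all 45037 probe sets limma with Benjamini-Hochberg adjustment called 0 (0%), with a smallest adjusted p of 0.336, and the 15 probe sets of the sarcomere isoforms had adjusted p-values from 0.790 to 0.993. At an unadjusted p of 0.05 in limma, 2 of the 15 passed (13.3%), 1 higher and 1 lower, where 6.07% of all probe sets did (2735). The groups did not overlap in 1 of the 15 in the higher direction, against 3.01% of all probe sets, and in 2 in the lower direction, against 2.44%. By mean, 2 of the 15 were on the higher side in mdx HRTΔIKKβ hearts and 13 on the lower side, with a median difference of -0.026, beside -0.006 over all probe sets. Over all 18193 named genes, at 1 probe set a gene, 8683 were higher and 9510 lower. Of the 13, 9 had a mean of at least 14, where the isoforms' differences ran from -0.04 to 0.04, and several probe sets read the same gene. None of the 15 differed by 1.5-fold.

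Most of these genes are among the most abundant transcripts of a heart, and on the arrays they lay at the top of the scale. A mean of at least 14 was reached by 136 probe sets of the array, and 10 of them belonged to these genes, where the highest value of any array was 15.09. They were the brightest probe sets of Myh6, Myl2, Tnni3, Tnnc1 and Actc1, all 3 of Myl3 and the 2 bright ones of Tnnt2. In this range the median residual SD of a probe set was 0.032, against 0.102 for means from 10 to 12, and the median absolute difference between groups was 0.029, against 0.074. The 10 probe sets differed between groups by -0.04 to 0.04. Whether this closeness is of the transcripts or of the upper end of the scale was not tested. Below the top were the probe sets of Myh7, Myh7b and Acta1 and the dimmer ones of Myh6 and Tnnt2.

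**Figure D1:**
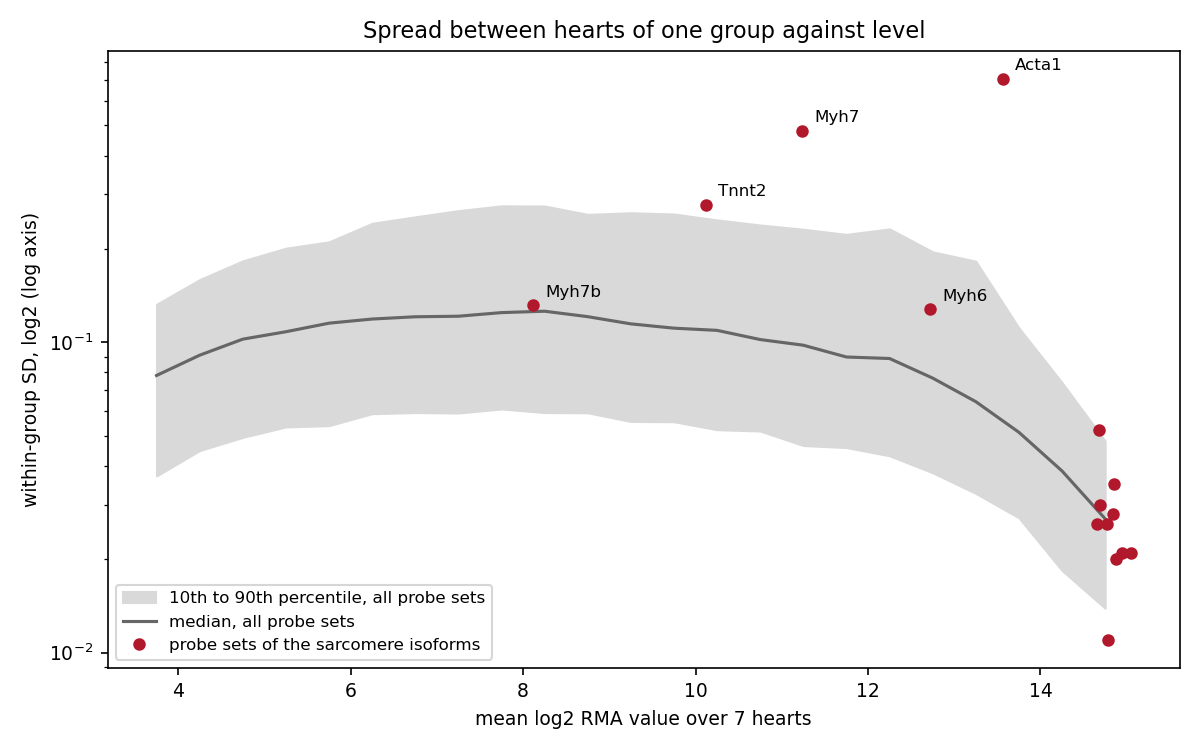
Residual SD of each probe set within groups (vertical axis, log2 units on a log axis) against its mean level over 7 hearts (horizontal axis, log2 RMA value), with the median of all probe sets and a band that holds most of them in grey and the 15 probe sets of the sarcomere isoforms in red. The band narrows toward the top of the scale, where 10 of the 15 lie. Acta1 (residual SD 0.707) and Myh7 (0.481) lie far above it and the dimmer Tnnt2 probe set just above it. The Myl3 probe set 1427769_x_at (0.052) lies at its upper edge.

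Among the heavy chains, the dimmer probe set of Myh6 was higher and Myh7b lower in every mdx HRTΔIKKβ heart, while Myh7 varied from heart to heart in both groups. Myh6, the fast adult heavy chain, gave 14.84, 14.85, 14.86 and 14.82 on its brightest probe set (1448826_at) in mdx HRTΔIKKβ hearts, and 14.82, 14.82 and 14.89 in mdx IKKβf/f hearts. The groups overlapped and differed by -0.003 ± 0.047 (95% interval -0.11 to 0.11, adjusted p = 0.993 by limma). On its second probe set (1417729_at) Myh6 gave 12.83, 12.75, 13.00 and 12.90 in mdx HRTΔIKKβ hearts, against 12.64, 12.34 and 12.57 in mdx IKKβf/f hearts. Every mdx HRTΔIKKβ heart lay above every mdx IKKβf/f heart there, with a difference of 0.35 ± 0.09 or 1.28-fold (95% interval 1.10 to 1.48). This gave an unadjusted p of 0.00505 and an adjusted p of 0.790 by limma. The Cre transgene, which only the mdx HRTΔIKKβ mice carry, is driven by a Myh6 promoter, and no source used here says whether a Myh6 probe set reads sequence of it. A higher signal there cannot be told apart from a transgene transcript. The 2 probe sets of the same gene thus did not move alike, and averaging them gave 0.175.

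The Myh6 and Myh7 transcripts are close relatives, and 2 probe sets are assigned to both genes and so were left out of the 15. The dimmer of them (1448827_s_at) gave 13.16, 13.13, 13.35 and 13.33 in mdx HRTΔIKKβ hearts, against 13.08, 12.85 and 12.88 in mdx IKKβf/f hearts. It was higher in every mdx HRTΔIKKβ heart, by 0.31 ± 0.09 (1.24-fold, unadjusted p = 0.00781 and adjusted p = 0.796 by limma). The brighter (1448554_s_at), near the top of the scale, differed by 0.01 ± 0.05. Which of the transcripts these probe sets read, the transgene's included, cannot be told apart.

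Myh7, the slow heavy chain of the fetal rodent ventricle, had its highest values in mdx IKKβf/f hearts and its lowest in an mdx HRTΔIKKβ heart. It gave 11.34, 11.25, 11.43 and 10.42 in mdx HRTΔIKKβ hearts, against 10.82, 11.58 and 11.79 in mdx IKKβf/f hearts. Replicate 4 of mdx HRTΔIKKβ and replicate 1 of mdx IKKβf/f were the low hearts, and the groups overlapped. Myh7 averaged 11.11 ± 0.46 (SD, n = 4) in mdx HRTΔIKKβ hearts and 11.40 ± 0.51 (SD, n = 3) in mdx IKKβf/f hearts. The groups differed by -0.29 ± 0.30 (0.818-fold, 95% interval 0.503 to 1.33, adjusted p = 0.854 by limma). The 7 hearts spanned 2.58-fold, and the residual SD of 0.481 stood at the 98.3rd percentile of all probe sets. The highest value was in mdx IKKβf/f replicate 3, the heart with the highest smooth muscle markers, whose part in it was not tested. Without mdx HRTΔIKKβ replicate 4 the difference was -0.0618, and without mdx IKKβf/f replicate 1 it was -0.578.

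Myh7b, a slow myosin heavy chain best known as the host of miR-499, gave 7.81, 7.94, 8.10 and 8.08 in mdx HRTΔIKKβ hearts, against 8.13, 8.30 and 8.38 in mdx IKKβf/f hearts. Every mdx HRTΔIKKβ heart was below every mdx IKKβf/f heart, though the nearest of them were 8.10 and 8.13. The difference was -0.29 ± 0.09 (0.818-fold, 95% interval 0.704 to 0.95), with an unadjusted p of 0.015 and an adjusted p of 0.796 by limma. Its highest value too was in mdx IKKβf/f replicate 3, and its direction held with each heart left out, between -0.359 and -0.232.

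**Figure D2:**
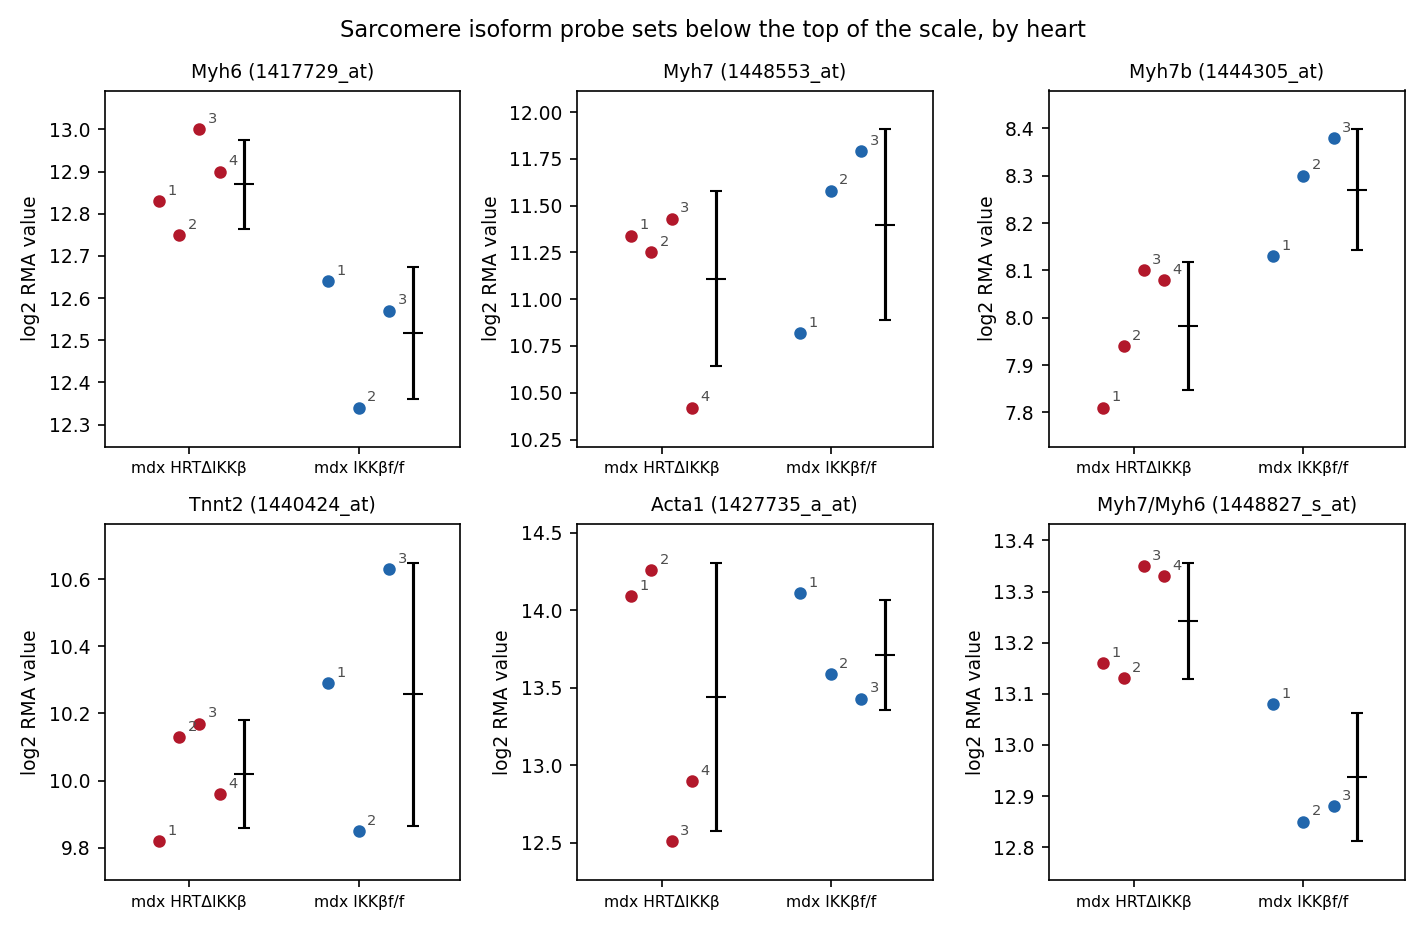
Log2 RMA values (vertical axis) in 4 mdx HRTΔIKKβ hearts (red, left) and 3 mdx IKKβf/f hearts (blue, right), numbered by replicate, with group mean and SD as black bars, for the 5 probe sets below the top of the scale and the dimmer probe set shared by Myh6 and Myh7. The groups are apart for Myh6 (1417729_at), Myh7b and the shared probe set, and overlap for Myh7, Acta1 and Tnnt2.

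The light chains of the ventricle barely varied. Myl2, the ventricular regulatory light chain, gave 15.03, 15.04, 15.07 and 15.04 in mdx HRTΔIKKβ hearts and 15.04, 15.09 and 15.06 in mdx IKKβf/f hearts, which is a difference of -0.02 ± 0.05 (adjusted p = 0.946 by limma). Myl3, the ventricular and slow muscle essential light chain, had 3 probe sets, with differences of -0.03, -0.04 and -0.03. On one of them (1428266_at) every mdx HRTΔIKKβ heart, at 14.86, 14.87, 14.87 and 14.85, was below or level at 2 decimals with the mdx IKKβf/f hearts at 14.87, 14.91 and 14.93. It is 1 of the 2 probe sets counted above without overlap in the lower direction. These 7 values spanned 0.08, and the limma test gave an unadjusted p of 0.388.

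The troponin subunits of the adult heart were as even. Tnni3, the cardiac inhibitory subunit, gave 14.76, 14.78, 14.78 and 14.79 in mdx HRTΔIKKβ hearts and 14.78, 14.78 and 14.79 in mdx IKKβf/f hearts, the narrowest range of the 15 probe sets. Tnnc1, the calcium-binding subunit that heart shares with slow skeletal muscle, gave 14.66, 14.68, 14.65 and 14.61 in mdx HRTΔIKKβ hearts and 14.65, 14.68 and 14.68 in mdx IKKβf/f hearts. Tnnt2, the tropomyosin-binding subunit of the heart, differed by -0.01 and -0.03 on its 2 bright probe sets.

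Only a dimmer probe set of Tnnt2 (1440424_at) spread more widely. It gave 9.82, 10.13, 10.17 and 9.96 in mdx HRTΔIKKβ hearts, against 10.29, 9.85 and 10.63 in mdx IKKβf/f hearts, overlapping groups with a difference of -0.23 ± 0.18 (95% interval -0.65 to 0.18, adjusted p = 0.819 by limma). Without mdx IKKβf/f replicate 3, the heart with the highest smooth muscle markers (Myh11 at 10.27 there and at most 8.74 in the others), the difference was -0.0478. Without mdx IKKβf/f replicate 2 it was -0.437. The part of smooth muscle in these values was not tested.

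Of the actins, the cardiac form was steady and the skeletal form varied more than almost any probe set on the array. Actc1 gave 14.90, 14.89, 14.85 and 14.81 in mdx HRTΔIKKβ hearts and 14.80, 14.83 and 14.83 in mdx IKKβf/f hearts. They differed by 0.04 ± 0.05 (adjusted p = 0.870 by limma). Acta1 gave 14.09, 14.26, 12.51 and 12.90 in mdx HRTΔIKKβ hearts, against 14.11, 13.59 and 13.43 in mdx IKKβf/f hearts. The mdx HRTΔIKKβ hearts held both the highest and the lowest values, replicates 1 and 2 against replicates 3 and 4, so that the whole range of 3.36-fold lay within that group. Acta1 averaged 13.44 ± 0.87 (SD, n = 4) in mdx HRTΔIKKβ hearts and 13.71 ± 0.35 (SD, n = 3) in mdx IKKβf/f hearts. The difference was -0.27 ± 0.44 (0.83-fold, 95% interval 0.408 to 1.69, adjusted p = 0.909 by limma), and the residual SD of 0.707 stood at the 99.3rd percentile of all probe sets. The direction rested on single hearts, since without mdx HRTΔIKKβ replicate 3 the difference was 0.04 and without replicate 2 it was -0.543.

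As Acta1 is the main actin of skeletal muscle, the skeletal muscle markers of each heart are given beside it. The 10 skeletal muscle markers, with the calcium pump gene Atp2a1 and the calsequestrin gene Casq1 among them, had a mean deviation from their own 7-heart mean of -0.60, -0.27, -0.66 and -0.59 in mdx HRTΔIKKβ hearts, against 2.55, -0.50 and 0.07 in mdx IKKβf/f hearts. Replicate 1 of mdx HRTΔIKKβ, high in Acta1, stood with replicates 3 and 4, low in Acta1, while replicate 2, the highest in Acta1, had the highest markers of its group. In mdx IKKβf/f replicate 1, where the markers were highest, Acta1 stood at 14.11, and the part of skeletal muscle in the Acta1 values was not tested.

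**Figure D3:**
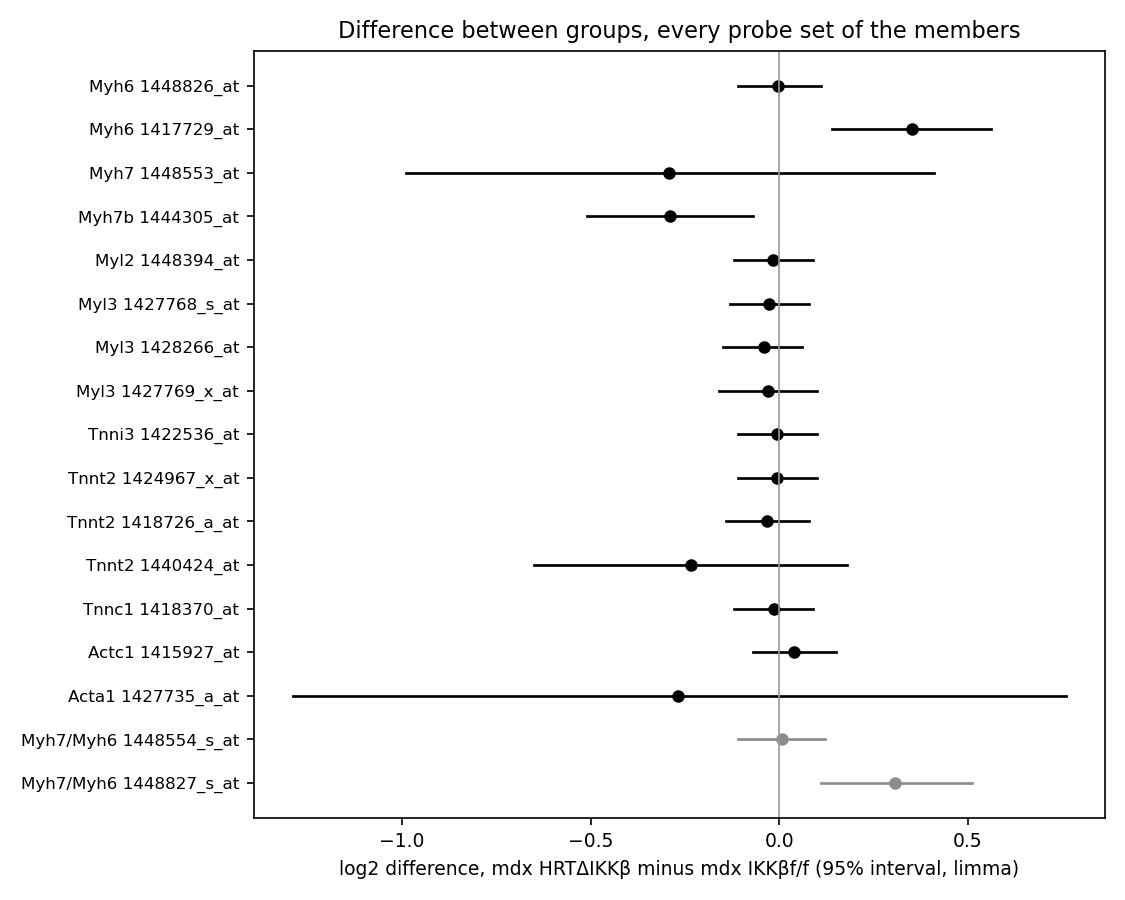
Difference between groups (horizontal axis, log2, mdx HRTΔIKKβ minus mdx IKKβf/f) with its 95% interval from limma, for each probe set of the sarcomere isoforms (black) and the 2 probe sets shared by Myh6 and Myh7 (grey). The intervals of Myh6 (1417729_at) and Myh7b leave out 0, as does that of the shared 1448827_s_at, none past the adjusted threshold, and the interval of Acta1 is the widest, from -1.29 to 0.76.

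The balance of adult and fetal isoforms was then followed within each heart, as the log2 value of the adult heart isoform minus that of its partner. A level on one probe set cannot be set against a level on another, so each pair is given as its deviation from the mean over 7 hearts. In all 5 pairs the adult probe set lay at the top of the scale and spanned 0.03 to 0.10 over the hearts, so that each pair follows its partner with the sign turned and does not bear on a change of the adult isoform. An exact two-sided permutation test compared the groups. With 4 against 3 hearts the smallest p it can give is 0.0286, and no pair passed before or after adjustment over the pairs.

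Myh6 minus Myh7 was -0.11, -0.01, -0.17 and 0.79 in mdx HRTΔIKKβ hearts, against 0.39, -0.37 and -0.51 in mdx IKKβf/f hearts. The pair was highest, toward the adult isoform, in mdx HRTΔIKKβ replicate 4, and the difference of 0.29 gave an exact p of 0.514 (adjusted 0.543). Without replicate 4 it was 0.0657 and without mdx IKKβf/f replicate 1 it was 0.564. With the second Myh6 probe set, a choice made after the values were seen, the difference was 0.64 (exact permutation p = 0.2).

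Actc1 minus Acta1 was -0.47, -0.66, 1.04 and 0.62 in mdx HRTΔIKKβ hearts, against -0.60, -0.05 and 0.11 in mdx IKKβf/f hearts. Replicates 1 and 2 of mdx HRTΔIKKβ and replicate 1 of mdx IKKβf/f leaned toward the fetal actin, and the difference of 0.31 gave an exact p of 0.543. It was 0.00555 without mdx HRTΔIKKβ replicate 3 and 0.574 without replicate 2. The hearts highest in Acta1 were not those highest in Myh7, and mdx IKKβf/f replicate 1 stood at 14.11 for Acta1 and at 10.82, its group's lowest value, for Myh7.

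Tnni3 minus Tnni1 was 0.24, 0.36, 0.57 and 0.14 in mdx HRTΔIKKβ hearts, against -1.63, 0.26 and 0.07 in mdx IKKβf/f hearts. Tnni1, the slow skeletal and fetal cardiac inhibitory subunit, stood at 7.07, 6.97, 6.75 and 7.19 in mdx HRTΔIKKβ hearts, against 8.96, 7.06 and 7.27 in mdx IKKβf/f hearts. The high value was that of the heart with the highest skeletal muscle markers. The difference of 0.76 (exact permutation p = 0.0857, adjusted 0.333) was 0.16 without that heart.

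The light chain pairs set the ventricular forms against the atrial forms, Myl7 (regulatory) and Myl4 (essential). Myl7 gave 12.75, 13.34, 13.68 and 13.84 in mdx HRTΔIKKβ hearts, against 13.55, 10.49 and 12.72 in mdx IKKβf/f hearts, a 10.2-fold span. Myl4 gave 12.75, 13.39, 13.69 and 14.01 in mdx HRTΔIKKβ hearts, against 13.56, 10.17 and 12.63 in mdx IKKβf/f hearts. Both had their lowest value by far in mdx IKKβf/f replicate 2.

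Accordingly Myl2 minus Myl7 differed by -1.17 (exact permutation p = 0.2) and Myl3 minus Myl4 by -1.37 (exact permutation p = 0.171), each adjusted to 0.333. A second, dimmer Myl4 probe set differed by -0.12 ± 0.14, and with the mean of both Myl4 probe sets and of those of Myl3 the pair differed by -0.64. Without mdx IKKβf/f replicate 2 the main differences were -0.271 and -0.387, and without mdx IKKβf/f replicate 1 they were -1.83 and -2.1. The 7 atrial markers, sarcolipin (Sln) and the atrial natriuretic peptide gene Nppa among them, deviated by -0.26, 0.21, 0.34 and 0.85 in mdx HRTΔIKKβ hearts, against 0.15, -1.08 and -0.22 in mdx IKKβf/f hearts. The heart lowest in the main probe sets of both light chains thus had the lowest mean of the atrial markers too. Sln, Nppa and Dkk3 were lowest in that heart, while Bmp10 was at 7.37 there and lowest in mdx IKKβf/f replicate 3, at 7.05. How much atrium each sample held was not tested.

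**Figure D4:**
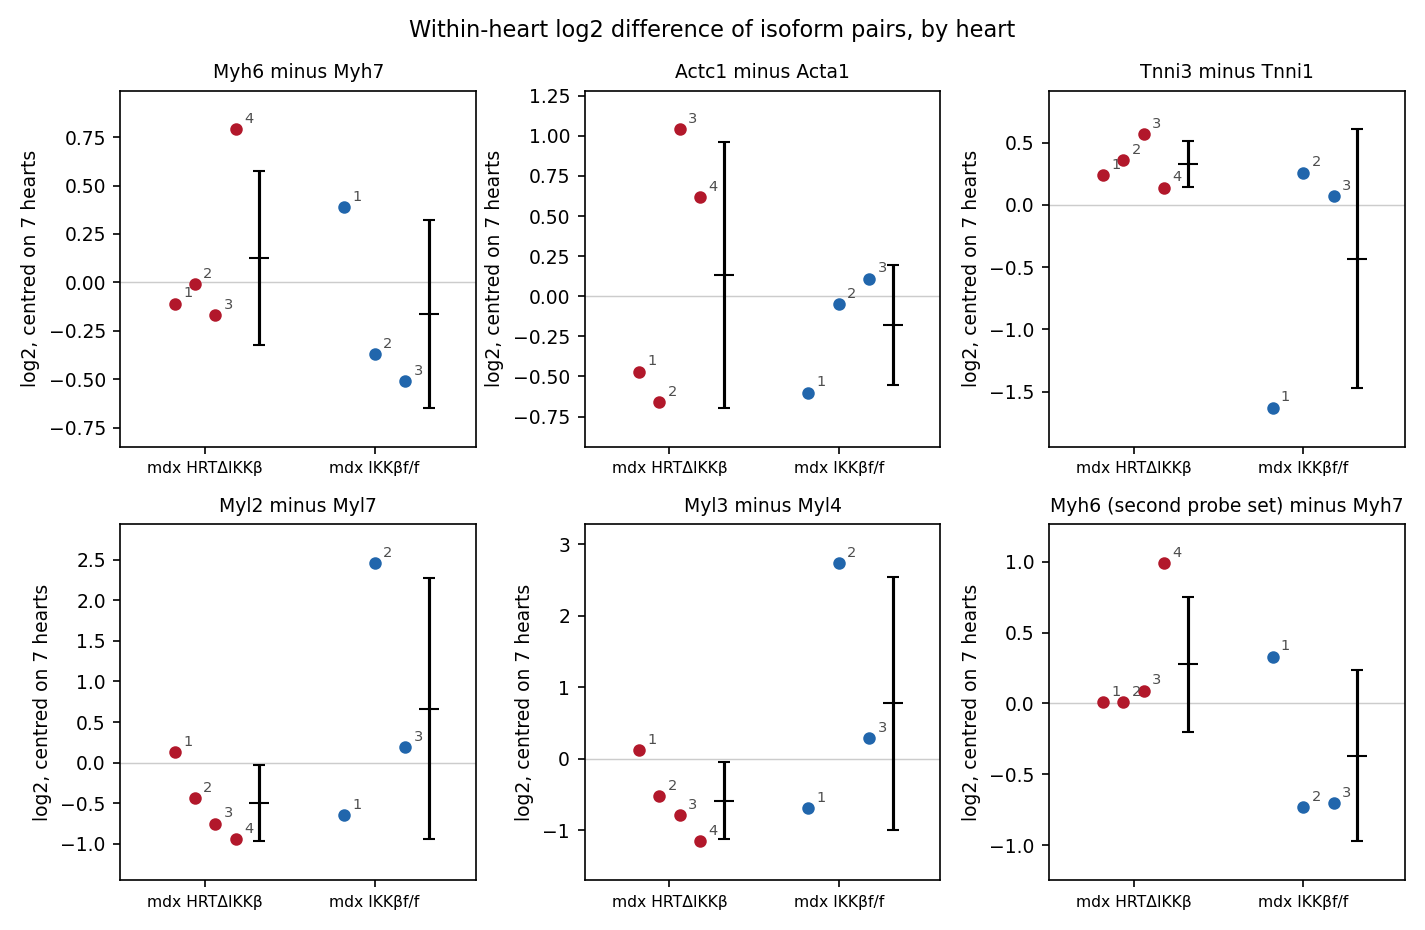
Within-heart log2 difference of an adult heart isoform and its partner (vertical axis, centred on the mean of 7 hearts), in 4 mdx HRTΔIKKβ hearts (red, left) and 3 mdx IKKβf/f hearts (blue, right), numbered by replicate, with group mean and SD as black bars. Single hearts lie apart, replicate 1 of mdx IKKβf/f in Tnni3 minus Tnni1 and replicate 2 in both light chain pairs, and the groups overlap in every panel.

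Other sarcomere and stress genes were set beside the isoforms as lists, 1 probe set a gene. Over all 18193 genes counted in this way, 3.25% passed limma's unadjusted p of 0.05 in the higher and 2.95% in the lower direction, and the median difference was -0.006. Of all 18193, 8683 had a higher and 9510 a lower mean in mdx HRTΔIKKβ hearts. No gene of any list passed the adjusted test. Of 15 partner genes of the heart sarcomere, such as titin-associated and Z-disc proteins, 3 had a higher and 12 a lower mean in mdx HRTΔIKKβ hearts, with a median of -0.051, and 1 passed the unadjusted test. This was Nrap, a protein of myofibril assembly, at -0.20 ± 0.08 (limma, unadjusted p = 0.0334). Mybpc3, cardiac myosin-binding protein C, was lower in every mdx HRTΔIKKβ heart, at 14.27, 14.38, 14.30 and 14.38, against 14.42, 14.42 and 14.45 in mdx IKKβf/f hearts (-0.10 ± 0.05, unadjusted p = 0.0886 by limma).

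Of 8 atrial, fetal and slow isoforms outside the 10 genes, 3 had a higher and 5 a lower mean, with a median of -0.53 (-0.229 without mdx IKKβf/f replicate 1 and -0.72 without replicate 2), and 1 passed the unadjusted test. Tnnt1, slow skeletal troponin T, gave 8.09, 8.25, 8.15 and 8.13 in mdx HRTΔIKKβ hearts, against 8.60, 8.39 and 8.36 in mdx IKKβf/f hearts. It was lower in every mdx HRTΔIKKβ heart, by -0.29 ± 0.07 (0.815-fold, unadjusted p = 0.00472 and adjusted p = 0.790 by limma), and its highest value was again in the heart with the highest skeletal muscle markers. The embryonic and perinatal heavy chains Myh3 (-0.90 ± 0.45) and Myh8 (-1.09 ± 0.59) had that same heart highest, at 8.29 and 7.78. The list did not move as 1 set, since the atrial light chain Myl4 was among the higher ones (1.34 ± 0.73).

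All 10 fast skeletal isoforms had a lower mean in mdx HRTΔIKKβ hearts, and 0 passed the unadjusted test in limma. They show how far 1 heart reached. Tnnc2, fast troponin C, gave 6.25, 9.05, 6.58 and 6.07 in mdx HRTΔIKKβ hearts, against 13.27, 6.59 and 9.67 in mdx IKKβf/f hearts. The median difference of the list was -2.306 and became -0.659 without mdx IKKβf/f replicate 1.

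The regulators of sarcomere genes, among them MEF2, GATA, TEAD and serum response factors and class II histone deacetylases, were split evenly. Of 23 measured, 11 had a higher and 12 a lower mean, with a median of -0.003. Mef2c, a transcription factor of muscle genes, gave 10.58, 10.63, 10.39 and 10.56 in mdx HRTΔIKKβ hearts, against 11.09, 10.64 and 10.77 in mdx IKKβf/f hearts. It was lower in every mdx HRTΔIKKβ heart, by -0.29 ± 0.11 (unadjusted p = 0.0333 by limma), with the nearest hearts at 10.63 and 10.64. Tbx5, a T-box factor of the heart, averaged higher by 0.15 ± 0.06 (limma, unadjusted p = 0.0464). These 2 were the ones past the unadjusted threshold, 1 in each direction.

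Most genes known for their response to cardiac stress split the mdx HRTΔIKKβ hearts into the same 2 pairs as Acta1 did. The full order of the 4 hearts was mostly not that of Acta1, and the split was noticed after the values were seen. Of 7 measured, 6 stood higher in replicates 1 and 2 of mdx HRTΔIKKβ than in replicates 3 and 4, and Nppa stood lower. Not all 6 splits were wide, and Fhl2 gave 14.14 and 14.21 against 14.07 and 14.10. The share of all probe sets that split these hearts in this way was not counted, so the 6 cannot be set against it. Between groups, 5 had a higher and 2 a lower mean in mdx HRTΔIKKβ hearts, with a median of 0.225 that was 0.017 without mdx HRTΔIKKβ replicate 2 and 0.435 without replicate 4. Nppb, the brain natriuretic peptide gene, gave 14.22, 14.51, 13.56 and 13.25 in mdx HRTΔIKKβ hearts, against 13.71, 13.68 and 13.58 in mdx IKKβf/f hearts. Xirp1, an actin-binding protein of the intercalated disc, gave 11.19, 11.45, 10.85 and 10.63 in mdx HRTΔIKKβ hearts, against 10.66, 10.58 and 10.87 in mdx IKKβf/f hearts. In both genes, as in Acta1, replicates 1 and 2 of mdx HRTΔIKKβ stood above replicates 3 and 4, and the group means differed by 0.22 ± 0.28 and 0.32 ± 0.19.

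Rcan1, a calcineurin inhibitor that calcineurin signalling induces, gave 11.93, 12.15, 11.31 and 11.10 in mdx HRTΔIKKβ hearts, against 10.93, 11.01 and 11.04 in mdx IKKβf/f hearts. It too was highest in replicates 1 and 2, and it was the 1 gene of the list past the unadjusted test, higher in every mdx HRTΔIKKβ heart by 0.63 ± 0.24 (1.55-fold, unadjusted p = 0.034 and adjusted p = 0.796 by limma). Nppa, also an atrial marker, ran the other way within the group, at 13.96, 14.48, 14.65 and 14.73 in mdx HRTΔIKKβ hearts, against 14.39, 12.88 and 14.04 in mdx IKKβf/f hearts. It averaged higher by 0.68 ± 0.36, with its lowest value in the heart lowest in atrial markers.

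**Figure D5:**
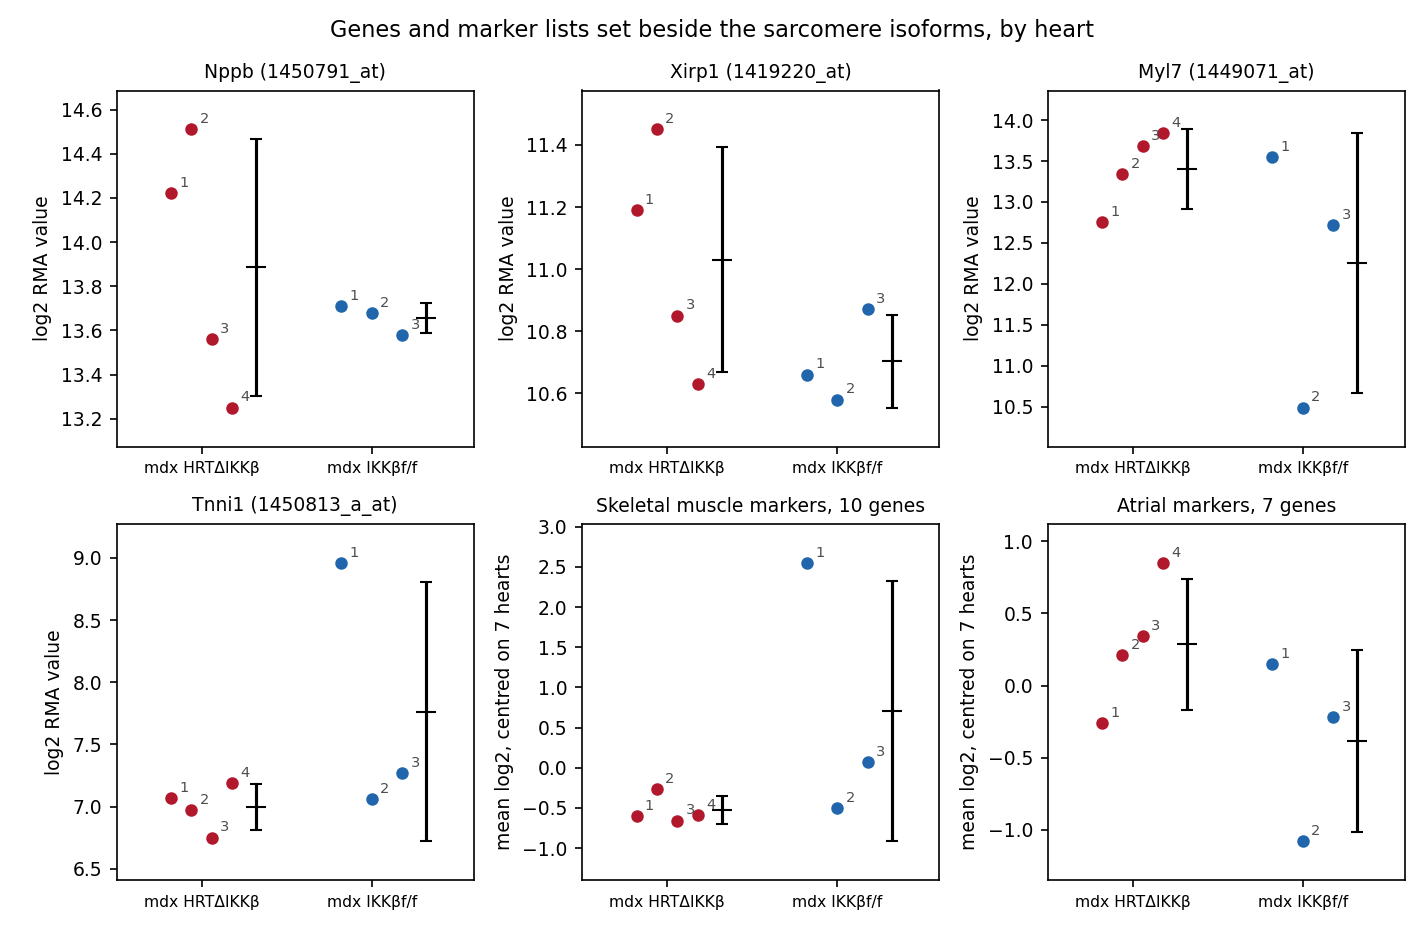
Log2 RMA values of Nppb, Xirp1, Myl7 and Tnni1 and mean centred log2 level of 10 skeletal muscle and 7 atrial markers (vertical axes), in 4 mdx HRTΔIKKβ hearts (red, left) and 3 mdx IKKβf/f hearts (blue, right), numbered by replicate, with group mean and SD as black bars. Nppb and Xirp1 are highest in mdx HRTΔIKKβ replicates 1 and 2, Tnni1 and the skeletal muscle markers in mdx IKKβf/f replicate 1, and Myl7 and the atrial markers are lowest in mdx IKKβf/f replicate 2.

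Cells other than cardiomyocytes were followed by marker lists in the same RNA, and their part in the values above was not tested. All 10 macrophage markers averaged higher in mdx HRTΔIKKβ hearts, 3 of them past the unadjusted test (C1qa, C1qc and Cd163). Over all 18193 genes, 8683 averaged higher and 3.25% passed the unadjusted test in that direction. No marker of any list passed the adjusted test. The mean level over the macrophage list was 9.57 to 10.07 in mdx HRTΔIKKβ hearts and 9.39 to 9.72 in mdx IKKβf/f hearts. Fibroblast markers had 6 higher and 2 lower means, at 10.88 to 11.37 in mdx HRTΔIKKβ hearts and 10.82 to 11.30 in mdx IKKβf/f hearts. Endothelial markers had 4 higher and 3 lower means, at 9.93 to 10.23 in mdx HRTΔIKKβ hearts and 9.83 to 10.07 in mdx IKKβf/f hearts, and Pecam1 and Vwf passed the unadjusted test. Smooth muscle markers had 2 higher and 5 lower means, at 8.93 to 9.17 in mdx HRTΔIKKβ hearts and 8.71 to 10.10 in mdx IKKβf/f hearts. The 11 cardiomyocyte genes outside the sarcomere had 5 higher and 6 lower means. Scaled to their mean in each heart, the difference of Myh6 (1417729_at) was 0.332, that of Myh7b -0.31 and that of Acta1 -0.288. That mean ran only from 13.33 to 13.39 in mdx HRTΔIKKβ hearts and from 13.27 to 13.37 in mdx IKKβf/f hearts. Scaling to it could therefore move a difference only slightly, and cardiomyocyte content was not tested by it.

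The genes whose pattern over the 7 hearts was most like an isoform were sought among 11474 genes by Pearson's r, as a description. With so many candidates over 7 arrays that share their normalization, high values arise for any pattern. For Acta1 these were Bik, Rhbdf2, Nck2, Ptpn18 and Nr1d1 (r from 0.971 to 0.982), and 43 genes had an r over 0.9. For Myh7 they were Matr3, Bap1, Ube2d2a, Mcur1 and Arl15 (0.954 to 0.981, with 25 genes over 0.9). For the second Myh6 probe set they were Ctcf, Slc35b4, Pgm3, Dnajb11 and Pdia6 (0.959 to 0.977, with 20 over 0.9). For Actc1 they were Mapk7, Metrnl, Nolc1, Ctr9 and Ampd3 (0.971 to 0.985, with 141 over 0.9). For the brightest Myh6 probe set they were Sars2, Flii, Ebf1, Idh3b and Zfp266 (0.937 to 0.979), over values that spanned less than 0.1 in log2.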

How the data were processed

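The deposited log2 values were computed by the authors with RMA, which corrects background, equalizes the distribution of values across arrays and summarizes the probes of each set. The study's methods name Partek for this, with Affymetrix Expression Console run independently, and versions are not given in the sources used here. Quantile normalization leaves no shift that all transcripts share. The values are array signals, so no depth can be given. Hearts count as biological replicates, as the study says of its samples.

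The limma fit (version 3.58.1 in R 4.3.3) took in all 45037 probe sets, dim ones included, and its two-sided p-values were adjusted by Benjamini-Hochberg over all of them. Intervals are at 95%. The procedure was tested on simulated data. Genes were named through the platform annotation, where 34945 probe sets had 1 gene, 932 several and 9160 none. A gene's main probe set had the highest mean over all arrays. The isoforms, the 5 pairs and the 12 lists (119 of 123 list genes were on the array) were chosen with earlier results of these data known. Named were all probe sets of the 10 genes, their pair partners, up to 4 genes with the smallest p in each list, and the 5 genes most like Myh6, Myh7, Acta1 and Actc1. Outside this rule, the second Myh6 probe set was added to the last search after its values were seen, and Ikbkb, Ryr2 and Atp2a1 were named.

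Hearts that share a replicate number deviated from their group's mean over replicates 1 to 3 with correlations of -0.154, -0.376 and -0.012. Hearts of unlike number gave -0.214 to 0.36. No label pairs the hearts, so no block was used. Alternatives were other normalizations, variance models and array weights, the methods' t-test, a filter on dim probe sets, scaling to cardiomyocyte genes, probe set means and leaving out each heart.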

Additional observations from a re-analysis of the deposited data

Results flagged for a closer look

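Among 20 sets of 4 mdx HRTΔIKKβ hearts (each probe set and each pair), 2 had a heart far from the other three by Dixon's ratio of gap to range at its 95% critical value. Chance alone does this in about 1 in 20 sets. For Myh6 minus Myh7 the ratio was 0.833, with mdx HRTΔIKKβ replicate 4 at 0.79 and the others between -0.17 and -0.01. For Myl3 (1428266_at) the ratio was 0.84, within hearts that spanned under 0.1 on the log2 scale near the top of the range.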

How the results depend on the processing

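Counts over all probe sets at an adjusted p of 0.05 in limma stayed at 0 under every other setting, and were 0 to 1 with each heart left out (1 without mdx HRTΔIKKβ replicate 1). At an unadjusted p of 0.05 the 2735 probe sets became 1692 among the brighter probe sets and 2019 to 3362 with a heart left out. The brighter probe sets were only those at or above the median level. Their counts come from a smaller total and cannot be read as losses beside the counts over all probe sets. Higher by 1.5-fold were 356 probe sets, 259 among the brighter ones and 272 to 478 with a heart left out. Lower by 1.5-fold were 109 probe sets, 70 among the brighter ones and 74 to 191 with a heart left out. Of the 15 probe sets, 2 passed the unadjusted test, and 1 to 3 did with a heart left out (1 without mdx IKKβf/f replicate 3, 3 without mdx IKKβf/f replicate 2). No probe set of the 10 genes passed the adjusted test under any setting. Directions turned only where differences were near 0 or rested on 1 heart. Myh6 (1448826_at) became 0.175 as a mean of its probe sets and ranged over -0.0146 to 0.0193 with a heart left out, Tnni3 over -0.00993 to 3.94e-05, Tnnt2 (1424967_x_at) over -0.0213 to 0.0126 and Acta1 over -0.543 to 0.04. The cause was not tested. Without single hearts, the median of the regulators ranged over -0.057 to 0.048 and that of the smooth muscle markers over -0.442 to 0.316.

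With the replicate number as a block, over the 6 hearts that share one, Myh6 (1448826_at) was 0.00393, Myh7 -0.0618, Acta1 -0.0873 and Myh6 minus Myh7 0.0657, and 2192 probe sets passed an unadjusted p of 0.05 and 0 the adjusted test. The block changed no call at an adjusted p. The number of hearts limits the precision, and what the upper end of the scale does to differences was not tested.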
